A study of Mus musculus with 12 samples.

Results

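The ATF4 stress regulators described here were 10 genes, Trib3, Ddit3, Chac1, Atf3, Atf4, Atf5, Sesn2, Ppp1r15a, Nupr1 and Eif2ak3, taken by symbol from the 17408 genes of the deposited normalized table. All 10 were found there, each under 1 identifier, and all 10 passed the low-count filter that left 18161 genes for testing. They were measured by bulk RNA sequencing of femoral shafts, the cortical bone of the thigh with its marrow spun out, from male mice of 12 weeks. The 4 groups, of 3 libraries each, were Cat -/- with ethanol (libraries 4 to 6), Cat -/- with PBS (libraries 1 to 3), Cat +/+ with ethanol (libraries 10 to 12) and Cat +/+ with PBS (libraries 7 to 9). Binge ethanol was gavaged on 4 days in a row at 3, 3, 4 and 4.5 g per kg from a 31.5% solution by volume, PBS was given in equal volume, and shafts were taken 6 hours after the last gavage. Every library was a pool of RNA from 2 mice, so p-values measure the spread between pools and not between single mice. The labels used here name Cat -/- as a catalase knockout without stating a strain or an allele.

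The integrated stress response joins several stress signals at 1 translation factor, eIF2. Kinases such as PERK, the product of Eif2ak3, phosphorylate eIF2 when proteins misfold, amino acids run short or haem is lacking. General translation then slows while the mRNA of Atf4 is translated better, and the ATF4 protein switches on genes for amino acid supply and for further regulators. Among these regulators are the transcription factors CHOP (Ddit3), ATF3 and ATF5, the pseudokinase TRIB3 and the phosphatase subunit GADD34 (Ppp1r15a), of which the last 2 damp the response. In osteoblasts, the cells that lay down bone, ATF4 is known for supporting amino acid import and collagen synthesis. Because the main step that raises ATF4 is translation, the level of its mRNA is a partial view of its activity.

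Library totals ran from 19950222 to 28789308 counts. CPM denotes reads of 1 gene relative to all reads of its library, after TMM scaling. Cat, the targeted gene, had 69.0, 74.2 and 71.6 CPM in Cat -/- ethanol libraries, 70.1, 65.9 and 66.5 CPM in Cat -/- PBS libraries, 172, 165 and 144 CPM in Cat +/+ ethanol libraries and 128, 152 and 175 CPM in Cat +/+ PBS libraries. The genotypes did not overlap, but Cat reads were still counted in Cat -/- shafts, at 0.446 times the wild-type level under either gavage. All 12 osteoblast and all 6 osteocyte markers listed were counted in every library, as were the markers of muscle (16), osteoclasts (9), erythroid cells (10), neutrophils (11), B cells (11) and macrophages (9), and 5 of 6 adipocyte markers. In such bulk tissue, fewer cells of a type and less RNA per cell cannot be told apart. The muscle markers summed to 3.05%, 3.48% and 3.66% of counts in libraries 8, 9 and 12, against 0.135% to 1.94% in the other 9. These high-muscle libraries are all Cat +/+. For the 10 regulators, values are given with and without them where a call turns on it. Genes of the other lists are given with these libraries in the fit only, also where they were called in Cat +/+ shafts.

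Trib3 had the largest ethanol difference of the 10 regulators and was 8.13-fold higher after ethanol in Cat -/- shafts. Its values in Cat -/- shafts were 10.9, 8.95 and 16.6 CPM after ethanol, against 1.05, 1.77 and 1.65 CPM after PBS. In Cat +/+ shafts they were 4.29, 2.96 and 4.53 CPM after ethanol, against 1.33, 2.88 and 1.99 CPM after PBS. The 3 Cat -/- ethanol libraries stood above all 9 others, the 3 Cat -/- PBS libraries lay among the Cat +/+ PBS libraries or just below them, and neither ethanol group overlapped its PBS group. The log2 fold change after ethanol in Cat -/- shafts was 3.02 (SE 0.33; adjusted p = 0.00358, edgeR quasi-likelihood test with Benjamini-Hochberg adjustment over all genes), so Trib3 rose. Its call held in all 23 alternative settings, with log2 fold changes from 2.64 to 3.20. It was also the regulator with the fewest reads, with 29 counts in its lowest library and 454 in its highest.

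**Figure D1:**
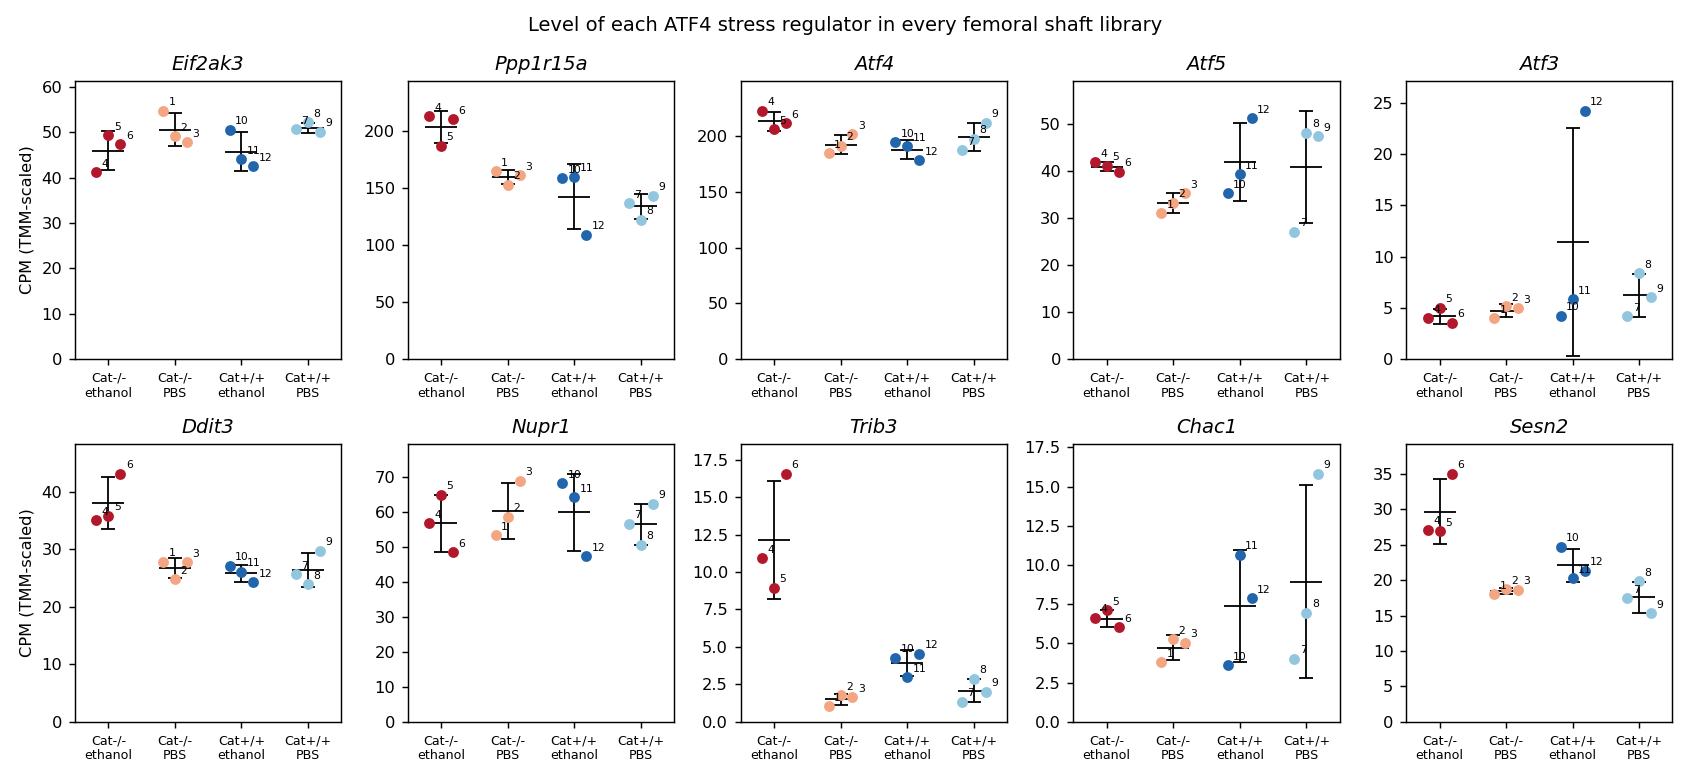
Level of each ATF4 stress regulator in every library, as TMM-scaled CPM on linear axes that start at 0. Points are libraries with their numbers, bars are the group mean ± SD (n = 3 pools), and the Cat -/- ethanol points of Trib3, Ddit3 and Sesn2 lie above all 9 other libraries.

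Ddit3, which encodes the transcription factor CHOP, rose with ethanol in Cat -/- shafts by a smaller amount. Its values in Cat -/- shafts were 35.1, 35.9 and 43.2 CPM after ethanol, against 27.9, 24.8 and 27.8 CPM after PBS. In Cat +/+ shafts they were 27.2, 26.2 and 24.3 CPM after ethanol, against 25.7, 23.9 and 29.8 CPM after PBS. Cat -/- ethanol was the only group of the 4 that stood apart, and the other 9 libraries overlapped freely. The log2 fold change was 0.51 (SE 0.10; adjusted p = 0.0327, edgeR) in Cat -/- and -0.03 (SE 0.10; adjusted p = 0.917, edgeR) in Cat +/+. Ddit3 overlaps the methionyl-tRNA synthetase gene Mars on the opposite strand, and no label states whether counting used strand. Mars averaged 79.0 CPM in Cat -/- ethanol and 66.4 CPM in Cat -/- PBS libraries (log2 fold change 0.25, adjusted p = 0.140, edgeR), and its part in the Ddit3 value was not tested.

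Sesn2 encodes sestrin 2, a leucine sensor that restrains the growth kinase complex mTORC1. Its values in Cat -/- shafts were 27.2, 26.9 and 35.1 CPM after ethanol, against 18.01, 18.8 and 18.6 CPM after PBS. In Cat +/+ shafts they were 24.7, 20.3 and 21.3 CPM after ethanol, against 17.5, 19.8 and 15.4 CPM after PBS. As for Trib3, neither ethanol group overlapped its PBS group, and the Cat -/- ethanol libraries were above all others. Sesn2 rose in Cat -/- shafts (log2 fold change 0.69, SE 0.12; adjusted p = 0.0201, edgeR), and its value in Cat +/+ shafts was 0.33 (SE 0.12; adjusted p = 0.215, edgeR). Library 6 was the highest of all 12 for Trib3, Ddit3 and Sesn2. Without it the log2 fold changes were 2.73 for Trib3, which kept its call, 0.41 for Ddit3 (adjusted p = 0.129, edgeR) and 0.55 for Sesn2 (adjusted p = 0.0751, edgeR).

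In all, 3 of the 10 regulators were called higher and 0 lower after ethanol in Cat -/- shafts, where 1.87% of all tested genes were called in either direction. Their median log2 fold change was 0.33, against 0.00 over all tested genes. For 7 of the 10, the 3 Cat -/- ethanol libraries lay wholly above the 3 Cat -/- PBS libraries, and for 0 wholly below, where 32.3% of all tested genes had no overlap in either direction. The 7 were Trib3, Ddit3, Sesn2, Ppp1r15a, Atf4, Atf5 and Chac1. By DESeq2, limma-voom and limma-trend, 3 regulators were called in each case. Over all genes, DESeq2 called 986 and limma-voom 455 of 18161, and limma-trend called 360 of 17408.

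Ddit3 and Sesn2 were less firmly called than Trib3. Leaving out any 1 of libraries 1, 2 and 3, the Cat -/- PBS pools, or library 6 left Trib3 as the single regulator called. Leaving out library 4, 5 or 11 ended the call of Ddit3 as well (adjusted p from 0.0509 to 0.0533, edgeR). The log2 fold changes over the 12 leave-one-out fits ran from 0.41 to 0.56 for Ddit3 and from 0.55 to 0.75 for Sesn2. With the mean of the immediate early genes as a covariate, a list that itself moved with ethanol, the values were 0.46 for Ddit3 (adjusted p = 0.0862, edgeR) and 0.72 for Sesn2 (adjusted p = 0.0533, edgeR).

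The promoters of the 3 genes that rose are shown with that of Chac1, which holds the ATF4 element but was not called, so that sequence and response can be read side by side. Each is the RefSeq window from 250 bases before to 50 bases after the gene start on GRCm38.p6, printed 5′ to 3′ on the strand of the gene. Capitals mark a match to the C/EBP-ATF response element (CARE), searched as TGATGNAA on both strands; the 2 matches shown read in reverse.
Trib3 promoter, chr2:152344011-152344310, minus strand: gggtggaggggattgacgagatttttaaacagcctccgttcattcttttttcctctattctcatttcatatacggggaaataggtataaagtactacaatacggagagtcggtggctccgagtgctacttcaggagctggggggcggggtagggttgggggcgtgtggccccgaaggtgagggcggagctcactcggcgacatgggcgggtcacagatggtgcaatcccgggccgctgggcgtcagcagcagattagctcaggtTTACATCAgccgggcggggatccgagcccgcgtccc
Ddit3 promoter, chr10:127290543-127290842, plus strand: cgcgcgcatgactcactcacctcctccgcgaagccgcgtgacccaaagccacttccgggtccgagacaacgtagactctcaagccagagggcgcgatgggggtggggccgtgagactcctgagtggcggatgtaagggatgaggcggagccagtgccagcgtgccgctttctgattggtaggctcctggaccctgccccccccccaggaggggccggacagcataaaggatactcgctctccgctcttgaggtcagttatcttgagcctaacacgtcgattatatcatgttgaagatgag
Sesn2 promoter, chr4:132510407-132510706, minus strand: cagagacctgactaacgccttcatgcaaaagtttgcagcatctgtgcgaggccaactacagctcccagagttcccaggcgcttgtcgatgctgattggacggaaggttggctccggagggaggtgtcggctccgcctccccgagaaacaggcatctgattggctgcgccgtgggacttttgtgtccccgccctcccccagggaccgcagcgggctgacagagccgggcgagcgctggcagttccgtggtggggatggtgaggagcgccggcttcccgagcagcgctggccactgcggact
Chac1 promoter, chr2:119350992-119351291, plus strand: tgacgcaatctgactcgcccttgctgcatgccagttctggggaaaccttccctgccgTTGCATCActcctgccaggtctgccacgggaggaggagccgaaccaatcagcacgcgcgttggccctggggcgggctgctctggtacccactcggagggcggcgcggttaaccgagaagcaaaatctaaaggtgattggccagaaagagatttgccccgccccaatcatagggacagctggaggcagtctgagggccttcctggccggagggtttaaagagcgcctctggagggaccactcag
The Trib3 match, TTACATCA, began at base 15 of the transcribed part, and the Chac1 match, TTGCATCA, began 193 bases before the start. Atf3 and Nupr1 held the same TTGCATCA as Chac1, each beginning 110 bases before the start, so 4 of the 10 regulators had a CARE match, against 3.97% of 32851 promoters of the same length. The 10 were chosen as genes of the ATF4 pathway, so the motif counts here are a description and not a test. They are per gene over any of its promoters, of which Atf5 had 2, whereas the shares of all promoters are per promoter. Ddit3 and Sesn2, which rose, had none in this window, and Chac1, Atf3 and Nupr1, which had one, were not called. The short core TGACG of the cyclic AMP response element was found in 5 of 10 (Trib3, Chac1, Atf3, Atf4 and Ppp1r15a) and in 20.8% of all promoters. The full element TGACGTCA, which contains that core on both strands, was found in Ppp1r15a alone among the 10 and in 1.79% of all promoters.

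The remaining regulators are taken by their place in the pathway, starting with the kinase. Eif2ak3, which encodes the kinase PERK, ran from 41.2 to 49.4 CPM in Cat -/- ethanol, from 47.8 to 54.8 CPM in Cat -/- PBS, from 42.6 to 50.6 CPM in Cat +/+ ethanol and from 50.1 to 52.2 CPM in Cat +/+ PBS libraries. Its log2 fold change with ethanol was -0.14 (SE 0.09) in Cat -/- and -0.16 (SE 0.09) in Cat +/+, neither called (adjusted p = 0.482 and 0.411, edgeR). It was thus the 1 regulator below 0 in both genotypes. Averaged over genotypes, its log2 fold change was -0.15 (SE 0.06; adjusted p = 0.149, edgeR).

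Atf4 itself differed little between groups. Its values in Cat -/- shafts were 223, 206 and 211 CPM after ethanol, against 184, 191 and 202 CPM after PBS. In Cat +/+ shafts they were 194, 191 and 178 CPM after ethanol, against 187, 198 and 212 CPM after PBS. The Cat -/- ethanol libraries lay just above the Cat -/- PBS libraries, while the Cat +/+ groups overlapped. The log2 fold change with ethanol was 0.15 (SE 0.07; adjusted p = 0.280, edgeR) in Cat -/- and -0.08 (SE 0.07; adjusted p = 0.583, edgeR) in Cat +/+.

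Ppp1r15a encodes GADD34, which brings a phosphatase to eIF2 and so ends the translational arrest. Its values in Cat -/- shafts were 213, 187 and 210 CPM after ethanol, against 165, 153 and 161 CPM after PBS. In Cat +/+ shafts they were 158, 160 and 109 CPM after ethanol, against 136, 122 and 143 CPM after PBS. Library 12 was the lowest of all 12 and lay below the Cat +/+ PBS libraries, while its 2 companion libraries lay above them. The log2 fold change in Cat -/- was 0.35 (SE 0.13; adjusted p = 0.182, edgeR) and became a call without library 12, a Cat +/+ library (0.34, adjusted p = 0.0299, edgeR), as it did when libraries 8, 9 and 12 were all left out (0.35, adjusted p = 0.00720, edgeR). A fit of the 2 Cat -/- groups by themselves called it too (0.35, adjusted p = 0.00866, edgeR). Over all genes, 1677 of 17761 were called in that fit and 568 of 18547 without library 12, against 339 of 18161 with all libraries.

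Atf5 and Atf3 encode basic leucine zipper factors, of which ATF5 is, like ATF4, controlled by translation and ATF3 is a repressor that many stresses induce. Atf5 had 41.9, 41.1 and 39.8 CPM in Cat -/- ethanol, against 31.0, 33.2 and 35.2 CPM in Cat -/- PBS libraries. In Cat +/+ shafts it had 35.3, 39.3 and 51.2 CPM after ethanol, against 27.1, 48.1 and 47.3 CPM after PBS. The Cat -/- groups did not overlap and the Cat +/+ groups did, with the high-muscle libraries 8, 9 and 12 as the 3 highest of all 12. Atf5 was not called in Cat -/- (log2 fold change 0.30, SE 0.20; adjusted p = 0.512, edgeR), was called without the 3 high-muscle libraries (0.31; adjusted p = 0.0218, edgeR) and in the fit of the 2 Cat -/- groups (0.30; adjusted p = 0.0147, edgeR), and turned to -0.07 (adjusted p = 0.802, edgeR) with the immediate early covariate. The fit of the 2 Cat -/- groups called 1677 of 17761 genes, against 339 of 18161 with all libraries. Atf5 overlaps Nup62 and Il4i1 on the opposite strand.

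Atf3 had 4.00, 5.0 and 3.54 CPM in Cat -/- ethanol, against 3.98, 5.17 and 4.96 CPM in Cat -/- PBS libraries. In Cat +/+ shafts it had 4.24, 5.82 and 24.2 CPM after ethanol, against 4.19, 8.40 and 6.02 CPM after PBS. Library 12 alone made the Cat +/+ ethanol mean of 11.4 ± 11.1 CPM (SD, n = 3) the highest of the 4 groups. The log2 fold change with ethanol was -0.17 (SE 0.58) in Cat -/- and 0.88 (SE 0.58) in Cat +/+ (adjusted p = 0.947 and 0.503, edgeR), and the Cat +/+ value was -0.29 without library 12.

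Chac1, an enzyme that degrades glutathione, and Nupr1, a small stress-induced chromatin protein, were not called by edgeR in any comparison. Chac1 had 6.63, 7.10 and 6.02 CPM in Cat -/- ethanol, against 3.80, 5.28 and 5.04 CPM in Cat -/- PBS libraries, without overlap. In Cat +/+ shafts it had 3.60, 10.7 and 7.90 CPM after ethanol, against 4.03, 6.96 and 15.8 CPM after PBS, with library 9 the highest. Its log2 fold change with ethanol was 0.48 (SE 0.49) in Cat -/- and -0.27 (SE 0.48) in Cat +/+ (adjusted p = 0.714 and 0.832, edgeR). Nupr1 ran from 48.4 to 64.9 CPM in Cat -/- ethanol, from 53.2 to 68.9 CPM in Cat -/- PBS, from 47.3 to 68.2 CPM in Cat +/+ ethanol and from 50.6 to 62.3 CPM in Cat +/+ PBS libraries, all overlapping.

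**Figure D2:**
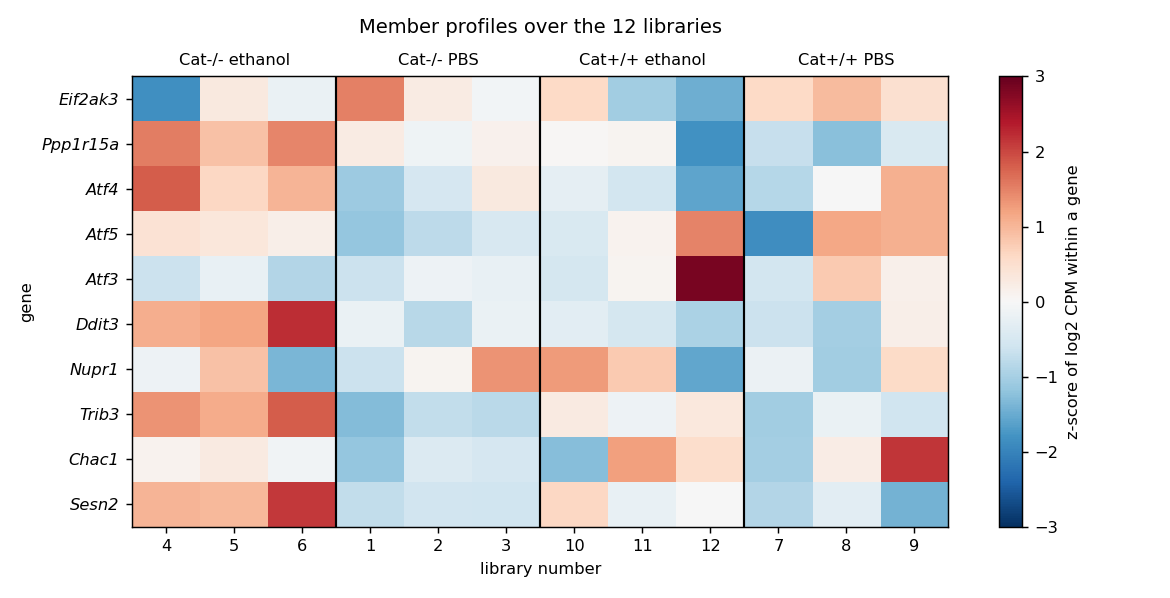
Heat map of the 10 regulators (rows) over the 12 libraries (columns, grouped by genotype and gavage), coloured by the z-score of log2 CPM within each gene. Trib3, Ddit3 and Sesn2 are high in the Cat -/- ethanol columns, and library 12 stands out as high for Atf3 and low for Ppp1r15a.

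In Cat +/+ shafts, 0 of the 10 regulators passed the edgeR test after ethanol, where 1.26% of all tested genes did. At an unadjusted p under 0.05 there were 2 regulators, beside 2907 of 18161 genes. The 2 were Trib3 (log2 fold change 0.93, SE 0.32; adjusted p = 0.187, edgeR) and Sesn2 (0.33). DESeq2, limma-voom and limma-trend also called 0. The same 2 regulators were those whose ethanol libraries lay wholly above the PBS libraries, with 0 wholly below, against 16.4% of all tested genes without overlap. The median over the 10 was 0.06, against -0.02 over all tested genes.

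The difference between the ethanol effects of the genotypes was tested as an interaction, and 0 regulators were called by edgeR, as were 0 of 18161 genes (0%). At an unadjusted p under 0.05 there were 3 regulators and 359 genes. DESeq2 called 1 gene, which was not a regulator. Trib3 had the largest of the 10 differences, with a log2 value of 2.09 (SE 0.45; unadjusted p = 0.000705 and adjusted p = 1, edgeR). Ddit3 had 0.54 (SE 0.15; unadjusted p = 0.00332 and adjusted p = 1, edgeR). Atf4 had 0.23 (SE 0.09; unadjusted p = 0.0276 and adjusted p = 1, edgeR). Atf3 at -1.05 (SE 0.82) and Chac1 at 0.76 (SE 0.68) were larger in size than Ddit3, with wider errors. A larger ethanol effect in Cat -/- shafts was therefore not shown for any regulator once all genes were accounted for.

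**Figure D3:**
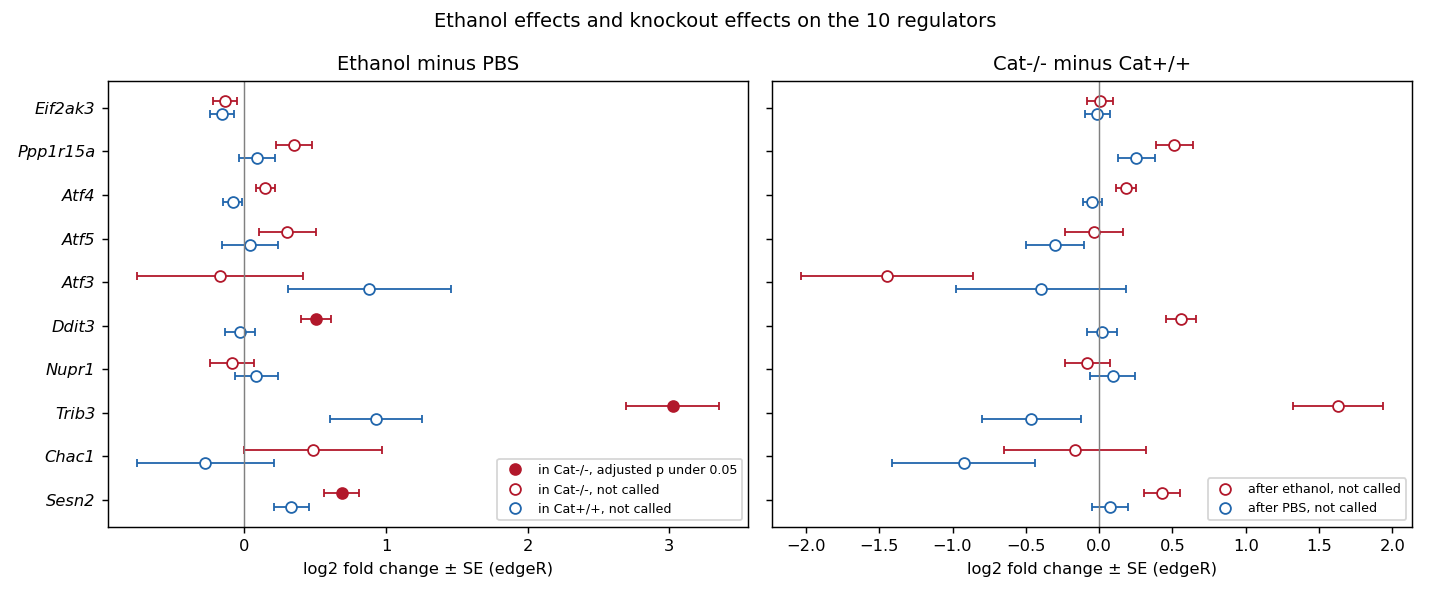
Log2 fold changes ± SE from edgeR for the 10 regulators, with ethanol minus PBS in each genotype on the left and Cat -/- minus Cat +/+ under each gavage on the right. Filled points passed an adjusted p of 0.05, which was so for Trib3, Ddit3 and Sesn2 after ethanol in Cat -/- shafts.

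The genotypes were also compared directly under each gavage. After ethanol, 0 of 10 regulators were called between Cat -/- and Cat +/+ shafts by edgeR, where 0.011% of all tested genes were. An unadjusted p under 0.05 was found for 6 regulators and for 1050 of 18161 genes. Trib3 had a log2 fold change of 1.63 (SE 0.31) and Ddit3 of 0.56 (SE 0.10), both at an adjusted p of 0.457 (edgeR). DESeq2 called these 2 regulators (adjusted p = 0.000860 and 0.00277) among 14 of 18161 genes, whereas limma-voom and limma-trend called 0 regulators. The other 4 were Ppp1r15a (0.51, SE 0.13), Sesn2 (0.43, SE 0.12), Atf4 (0.18, SE 0.07) and Atf3 (-1.45, SE 0.58), each at an adjusted p of 0.820 (edgeR). The Atf3 value was -0.27 without library 12. In 5 regulators, Trib3, Ddit3, Sesn2, Ppp1r15a and Atf4, the Cat -/- ethanol libraries lay wholly above the Cat +/+ ethanol libraries and in 0 wholly below, where 11.2% of all tested genes had no overlap. Under either gavage, all 16 muscle and all 11 neutrophil markers were below 0 in Cat -/- against Cat +/+ shafts, and all 10 erythroid markers above 0. Their list medians after ethanol were -1.36, -0.18 and 0.35. Of these markers 0 were called by edgeR, and their part in the regulators' values was not tested.

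After PBS, 0 of 10 regulators were called by edgeR, where 0.011% of all tested genes were. An unadjusted p under 0.05 was found for 0 regulators and for 1350 of 18161 genes. DESeq2, limma-voom and limma-trend called 0. By DESeq2, 2 regulators had an unadjusted p under 0.05, beside 1584 of 18161 genes. The log2 fold changes ran from -0.92 for Chac1 (SE 0.49) to 0.25 for Ppp1r15a (SE 0.13). Ppp1r15a was the 1 regulator without overlap, at 159 ± 6.11 CPM in Cat -/- PBS and 134 ± 10.8 CPM in Cat +/+ PBS libraries (SD, n = 3 each), where 14.1% of all tested genes had no overlap. Trib3 averaged 1.49 ± 0.387 CPM in Cat -/- PBS and 2.07 ± 0.780 CPM in Cat +/+ PBS libraries (log2 fold change -0.46, SE 0.34; adjusted p = 0.654, edgeR). The comparisons above share groups with each other, so they are not independent of one another.

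Averaged over genotypes, 2 of the 10 regulators rose with ethanol, where 10.8% of all tested genes were called. These were Trib3 (log2 fold change 1.98, SE 0.23; adjusted p = 0.000914, edgeR) and Sesn2 (0.51, SE 0.09; adjusted p = 0.00512, edgeR), both called under all 22 alternatives. Ddit3 was at 0.24 (SE 0.07; adjusted p = 0.0602, edgeR) and Ppp1r15a at 0.22 (SE 0.09; adjusted p = 0.142, edgeR). DESeq2 and limma-trend called 3 regulators, Ddit3 being the third, and limma-voom 2. Over all genes, DESeq2 called 2545 and limma-voom 1978 of 18161, and limma-trend called 1999 of 17408. Ddit3 was called in 6 of 22 alternatives, among them the fits without library 9 (0.28) and without library 12 (0.26), and Ppp1r15a was called without library 12 (0.30). Without the 3 high-muscle libraries Ddit3, Ppp1r15a and Atf5 (0.39) were called, and Atf5 also with the muscle covariate (0.24). Averaged over gavages, 0 regulators differed between Cat -/- and Cat +/+ by edgeR, where 0.011% of all tested genes did. An unadjusted p under 0.05 was found for 4 regulators and for 2591 of 18161 genes. DESeq2 called Ppp1r15a (0.39, adjusted p = 0.0131) among 215 of 18161 genes, and limma-voom and limma-trend called 0 regulators.

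Per kilobase of exon, which allows genes to be compared with each other, the mean levels over the 12 libraries followed the order Atf4 (84.0 CPM per kb), Ppp1r15a (54.3), Nupr1 (23.2), Atf5 (19.7), Ddit3 (17.1), Eif2ak3 (8.02), Sesn2 (6.32), Chac1 (4.22), Atf3 (3.08) and Trib3 (2.31). Trib3 was thus the scarcest of the 10 and at the same time the most variable between groups, with a highest group mean 8.14 times its lowest. The same ratio was 1.07 for Nupr1, 1.11 for Eif2ak3 and 1.14 for Atf4.

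Of 10 paralogs tested, 0 were called by edgeR after ethanol in either genotype, 3 had an unadjusted p under 0.05 in each, and DESeq2 called 1 in each. Over all 18161 genes, edgeR gave an unadjusted p under 0.05 for 2980 after ethanol in Cat -/- and 2907 in Cat +/+ shafts. For the same 2 comparisons edgeR called 339 and 229 genes, and DESeq2 called 986 and 731. These totals also stand beside the list counts below. Trib1, which like Trib3 encodes a pseudokinase, averaged 17.7 ± 1.79 CPM in Cat -/- ethanol and 17.4 ± 1.19 CPM in Cat -/- PBS libraries, and Trib2 averaged 23.6 ± 3.74 CPM and 29.6 ± 0.442 CPM in the same groups (SD, n = 3 each). Averaged over genotypes 3 of the 10 paralogs rose, where 10.8% of all tested genes were called in either direction. These 3 were the phosphatase subunit gene Ppp1r15b (log2 fold change 0.27, SE 0.06, adjusted p = 0.0148, edgeR) and the sestrins Sesn3 (0.28, SE 0.06, adjusted p = 0.0179, edgeR) and Sesn1 (0.27, SE 0.07, adjusted p = 0.0301, edgeR). The log2 fold change of Sesn3 was 0.22 in Cat -/- and 0.34 in Cat +/+ shafts.

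Genes that ATF4 is known to drive were counted by role. Of 11 tested genes for amino acid and one-carbon synthesis, 3 rose and 2 fell after ethanol in Cat -/- shafts, with a list median of 0.11 on the log2 scale. Asns, asparagine synthetase and a classical ATF4 target, averaged 101 ± 10.6 CPM in Cat -/- ethanol and 42.0 ± 2.68 CPM in Cat -/- PBS libraries, against 62.7 ± 13.4 CPM in Cat +/+ ethanol and 40.3 ± 3.23 CPM in Cat +/+ PBS libraries (SD, n = 3 each). It rose in Cat -/- shafts with a log2 fold change of 1.27 (SE 0.14; adjusted p = 0.00358, edgeR). In Cat +/+ shafts its value was 0.64 (SE 0.14; adjusted p = 0.0494, edgeR), a call that limma-voom did not make, with 0 of the 11 genes called higher there. The mitochondrial folate enzymes Mthfd2 (0.84) and Shmt2 (0.54) rose in Cat -/- shafts. Against them, Aldh1l2, another mitochondrial folate enzyme, fell by 1.45 and the proline enzyme gene Pycr1 by 0.96 on the log2 scale in Cat -/- shafts, and Pycr1 fell by 0.87 in Cat +/+ shafts. Cth and Cbs, of cysteine synthesis, did not pass the low-count filter.

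Of 10 amino acid transporter genes, 2 rose in Cat -/- shafts, Slc7a5 (log2 fold change 0.91, SE 0.12) and Slc3a2 (0.51, SE 0.07), the light and heavy chains of 1 leucine transporter. In Cat +/+ shafts Slc7a5 had 0.32 and Slc3a2 0.19, not called. In Cat -/- shafts 8 of the 10 transporter genes were above 0 and 2 below, Slc7a11 (-0.66) and Slc7a3 (-0.03). At an unadjusted p under 0.05 (edgeR) there were 6, of which 5 were higher. Of 13 genes for tRNA charging and export, 3 rose in Cat -/- shafts, Cars (0.50), Sars (0.45) and Nars (0.33). In Cat +/+ shafts 0 of the 13 were called by edgeR, 4 had an unadjusted p under 0.05, and DESeq2 called 1, which was lower. In the interaction all 13 were above 0, with a median of 0.25 against 0.02 over all tested genes. An unadjusted p under 0.05 was found for 5 of them and for 359 of 18161 genes. Of the 13, 0 were called by edgeR or DESeq2. All 13 were measured in the same 12 pools, so they are not independent of one another. Other lists also lay mostly above 0 in the interaction, with 9 of 11 synthesis genes (median 0.21) and 8 of 10 transporter genes (0.21). The same held for 8 of the 10 regulators (0.26) and 14 of 16 muscle markers (0.28). By contrast, 0 of 12 osteoblast and 0 of 9 osteoclast markers were above 0. Of 18 other targets of ATF4 or CHOP, Txnip, which binds thioredoxin, was the 1 called in Cat -/- (0.58, SE 0.12; adjusted p = 0.0399, edgeR), and DESeq2 called 6. In Cat -/- shafts 12 of the 18 were above 0 and 6 below, among them Gdf15 (-0.72). Rit1 of that list had no match, and Fgf21 and Adm2 did not pass the filter.

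**Figure D4:**
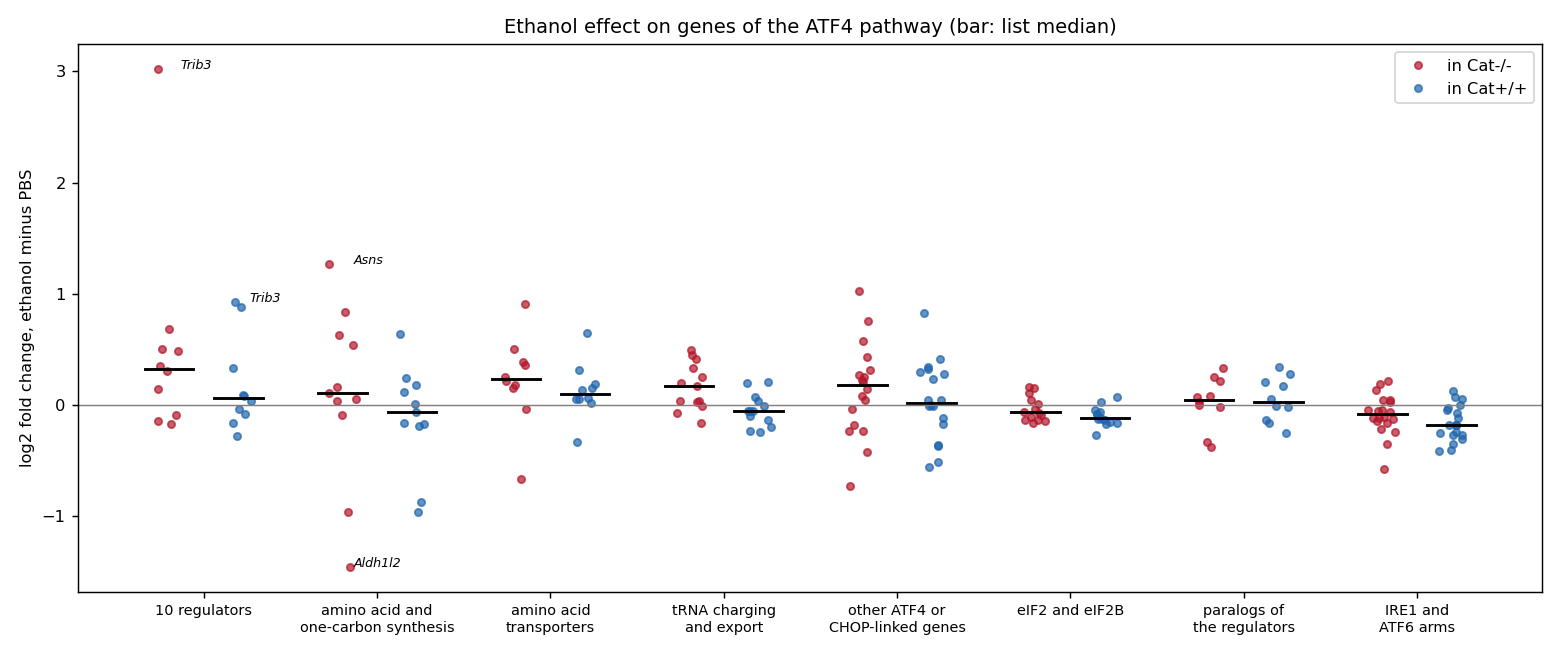
Log2 fold changes with ethanol for every tested gene of 8 lists, in Cat -/- (red, left of each pair) and Cat +/+ shafts (blue, right of each pair), with bars at the list medians. Names are given for Trib3 and for genes beyond 1.2 in size; the median of the 10 regulators was 0.33 in Cat -/- and 0.06 in Cat +/+.

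Of 20 genes of the IRE1 and ATF6 arms, the other arms of the unfolded protein response, edgeR called 0 higher and 1 lower in Cat -/- shafts, the endoplasmic reticulum protein gene Selenos (-0.34), while 7 had an unadjusted p under 0.05, of which 2 were higher. DESeq2 called 0 higher and 2 lower there. In Cat +/+ shafts 2 fell, the chaperone gene Hyou1 by 0.41 and Sdf2l1 by 0.41 on the log2 scale by edgeR. There 11 of the 20 had an unadjusted p under 0.05, all of them lower, and DESeq2 called 8 lower. Averaged over genotypes edgeR called 0 higher and 7 lower, and DESeq2 called 1 higher and 10 lower. Over all 18161 genes, edgeR called 1967 and DESeq2 called 2545 in that comparison. Another list of 14 genes held those for eIF2, eIF2B and their phosphatases together with Impact, Gcn1l1 and Dnajc3, the last also 1 of the 20 above. Of these 14, 0 were called by edgeR in either genotype and 2 had an unadjusted p under 0.05 in each. DESeq2 called 1 higher in Cat -/- and 1 lower in Cat +/+ shafts. Among 23 basic leucine zipper partners, Fos (0.62) and Junb (0.36) rose in Cat -/- shafts. Of 14 p53 targets, listed because p53 also drives Sesn2 and Atf3, Gadd45a was the 1 that rose there (0.38).

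Other gene groups moved in the same Cat -/- ethanol libraries in which Trib3, Ddit3 and Sesn2 were high. Of 12 osteoblast markers, all were below 0 in Cat -/- shafts, 11 had an unadjusted p under 0.05 and 3 fell by edgeR (Phospho1, Runx2 and Pth1r), with a summed level of 1.29% to 2.70% of counts in Cat -/- ethanol and 3.69% to 4.35% in Cat -/- PBS libraries. DESeq2 called 11 of the 12 lower, and limma-voom and limma-trend 4 each. Library 6, the highest for the 3 called regulators, had the lowest of these sums in Cat -/- shafts. Of 20 immediate early genes, 14 were above 0, 5 rose and 1 fell by edgeR, with sums of 0.0806% to 0.0877% in Cat -/- ethanol and 0.0707% to 0.0745% in Cat -/- PBS libraries. Of 14 glucocorticoid response genes, all were above 0 and 4 rose by edgeR, with sums of 0.117% to 0.165% in Cat -/- ethanol and 0.0588% to 0.0854% in Cat -/- PBS libraries. The same lists differed in Cat +/+ shafts, where 0 regulators were called by edgeR. Immediate early sums were 0.0802% to 0.0839% in Cat +/+ ethanol and 0.0681% to 0.0715% in Cat +/+ PBS libraries. Of the 20 genes, 13 were above 0 and 7 below 0 there. EdgeR called 0 higher and 1 lower, and DESeq2 called 2 higher and 1 lower. Glucocorticoid response sums were 0.107% to 0.187% in Cat +/+ ethanol and 0.0555% to 0.0929% in Cat +/+ PBS libraries, with 3 genes called higher by edgeR. Osteoblast sums were 1.25% to 2.64% in Cat +/+ ethanol and 2.39% to 3.01% in Cat +/+ PBS libraries, overlapping, with 0 markers called by edgeR, 5 at an unadjusted p under 0.05 and 3 called lower by DESeq2. No listed marker of osteoblasts was at 0 in any library. The part of these changes in the regulators' values was not tested. The immediate early covariate given above cannot separate that part from ethanol, because the immediate early sums did not overlap between ethanol and PBS in either genotype.

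The genes whose pattern over the 12 libraries was most like that of Trib3 were ranked by the mean absolute difference of z-scored log2 CPM, among 15350 genes with a mean of at least 1 CPM. The closest outside the regulators were Tubg1 (0.219), 4933404O12Rik (0.255), Hfe (0.283), Gadd45a (0.294), Entpd6 (0.307) and Mthfd2 (0.309). Tubg1 encodes a tubulin of the centrosome, Hfe a regulator of iron uptake and Gadd45a a growth arrest protein. Of the regulators Sesn2 was the most like Trib3, at 0.301, whereas Ddit3 was at 0.569 and Eif2ak3, at 1.45, was the least alike. The measure ignores size: Tubg1 averaged 35.6 ± 1.06 CPM in Cat -/- ethanol and 29.6 ± 1.39 CPM in Cat -/- PBS libraries (SD, n = 3 each), a far smaller difference than that of Trib3.

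On GRCm38, the annotation places Trib3 on chromosome 2 at 152337422 to 152344032 on the minus strand, 48.9 Mb from Cat, and Chac1 on the same chromosome at 119351229 to 119354381 on the plus strand, 15.9 Mb from Cat. Under PBS, Cat -/- minus Cat +/+ was -0.46 (SE 0.34) for Trib3 and -0.92 (SE 0.49) for Chac1 on the log2 scale. Neither was called by edgeR with 3 pools per group. Whether their position on the chromosome of Cat bears on their values was not tested.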

How the data were processed

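Counts per Ensembl gene for 49315 genes are whole numbers deposited by the authors without normalization, per the file headers and the values. Per the submitters' processing notes, Trimmomatic 0.36, STAR 2.5.2b, featureCounts, Subread 1.5.2 and GRCm38 were used; for settings, annotation and strand, the sources state nothing (not given in the sources used here). A deposited table of a normalized signal for 17408 genes holds, by the authors, the count divided by 1 factor per library; it served in 1 alternative and to find the members.

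Libraries were scaled with TMM (factors 0.908 to 1.05), genes filtered with filterByExpr, and 18161 genes fitted with an edgeR 4.0.16 robust quasi-likelihood model in R 4.3.3 with 1 coefficient for each of the 4 groups (8 residual degrees of freedom, common dispersion 0.0338). The threshold for a call was 0.05 on the p adjusted by Benjamini-Hochberg across the whole table. Every adjusted p is from this fit unless another tool is named. The SE is the log2 fold change divided by the square root of F. The fit was checked on simulated counts. CPM per kb uses the union exon length of GENCODE M21, which also gave coordinates. Promoters are from RefSeq; all 10 members matched.

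The scaling was varied (upper-quartile or RLE factors), as were the filter (none, or 3 libraries with at least 5 CPM), the tool (DESeq2 1.42.0, or limma 3.58.1 as limma-voom or as limma-trend on log2 of signal plus 1) and the samples or terms in the fit (the 2 groups compared by themselves, a muscle or immediate early covariate, each library left out, and the 3 high-muscle libraries left out). All members were named in every comparison; of each list, up to 4 called genes with the largest change. The members and lists were chosen with earlier results of these data known.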

Additional observations from a re-analysis of the deposited data

How the results depend on the processing

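No paired analysis was possible because the labels number the libraries 1 to 12, so no groups share a number. The number of the 10 regulators called after ethanol in Cat -/- shafts was 3, and it ranged from 1 to 4 with single libraries left out. It was 1 with the immediate early covariate and 5 in the fit of the 2 Cat -/- groups or without the 3 high-muscle libraries; the cause was not tested. Averaged over genotypes the number was 2, ranged from 2 to 4 with single libraries left out, and was 5 without the 3 high-muscle libraries, which leaves 1 Cat +/+ PBS library, assumed to vary like the other groups. By DESeq2 it was 2 for Cat -/- against Cat +/+ after ethanol and 1 averaged over gavages, where edgeR gave 0. Atf5 reversed with the immediate early covariate, to -0.074 in Cat -/- and -0.10 averaged over genotypes. Of the 43 other log2 fold changes, none with an unadjusted p under 0.05 in the edgeR fit of all libraries or with a call in any setting, 33 changed sign under at least 1 alternative.

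Over all genes, 339 were called after ethanol in Cat -/- shafts, against 52 to 568 with single libraries left out, 1677 in the fit of the 2 groups, 986 by DESeq2, 871 and 207 with the muscle and immediate early covariates, and 1342 without the high-muscle libraries. In Cat +/+ shafts 229 were called, and 35 to 320 with single libraries left out, 4 in the fit of the 2 groups, 731 by DESeq2, 152 by limma-voom, 484 and 505 with the covariates and 37 without the high-muscle libraries. Averaged over genotypes these were 1967, and 1040 to 2152 with single libraries left out. Between genotypes, DESeq2 called 14 genes after ethanol and 215 averaged over gavages, where edgeR called 2 in each; the average gave 6 with no low-count filter and 4 without the high-muscle libraries. The scarce regulators had lowest counts of 29 for Trib3, 78 for Chac1 and 92 for Atf3, and the part of depth in their values was not tested.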
